A study of Mus musculus with 15 samples.

Results

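Calcium enters chondrocytes through several kinds of membrane channel, and 9 genes of these channels were followed here: *Cacna1h*, *Cacna1g*, *Cacna1c* and *Cacna2d1* of the voltage-gated channels, the stretch-activated channels *Piezo1* and *Piezo2*, the osmosensitive and mechanosensitive channel *Trpv4*, and *Stim1* and *Orai1* of store-operated entry. They are 9 of the 24134 genes in each of 2 count tables, and all 9 passed the filter on low counts in both. The 9 genes were listed by name with earlier results of these data known. Among them *Cacna1h* was selected on its measured values, because it was seen to fall under XAV939. The values that chose it were the XAV939 and DMSO libraries, so its changes with either drug are given as a description with no test. Every library came from primary articular chondrocytes of ICR mice aged 4 to 5 days, taken from femoral condyles and tibial plateaus and used at passage 0. In the siRNA table, 3 libraries of cells given control siRNA (siCtrl) stand against 3 of cells given siRNAs to both *Tnks* and *Tnks2* (siTnks/2), for which no time is named. In the drug table, 3 libraries each came from cells kept for 108 h in DMSO, 10 µM XAV939 or 10 µM IWR-1. Tankyrases, encoded by *Tnks* and *Tnks2*, attach ADP-ribose chains to other proteins, and both drugs block that activity. The study compared knockdown and inhibitors to learn how the loss of tankyrase function alters the chondrocyte transcriptome.

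In cartilage, load and changes in osmolarity reach the cell largely as calcium signals. PIEZO1, PIEZO2 and TRPV4 open on mechanical or osmotic stimuli. Voltage-gated channels open on depolarization, those of the T type (*Cacna1g*, *Cacna1h*) at more negative potentials than the L type (*Cacna1c*), while *Cacna2d1* encodes an accessory subunit that raises the number of channels at the surface. STIM1 senses the calcium content of the endoplasmic reticulum and opens the plasma membrane pore ORAI1 when that store empties.

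Libraries held 26857070 to 36615194 counts, and replicates of a group differed by more than sampling noise in every pair. Transcripts of the targeted genes were lower in the siTnks/2 libraries, with log2 changes of -1.81 for *Tnks* (SE 0.22, adjusted p = 0.00569) and -1.10 for *Tnks2* (SE 0.11, adjusted p = 0.00384) in edgeR's quasi-likelihood test. The label articular chondrocyte was borne out by its markers, none of which was at 0 in any group. The summed level of the 12 chondrocyte markers ranged from 94630 to 126537 counts scaled to library size (CPM) in siCtrl, 137305 to 221547 in siTnks/2, 28314 to 38416 in DMSO, 40403 to 59985 in XAV939 and 97491 to 123452 in IWR-1. Of these 12, 6 rose with knockdown, 6 under XAV939 and 12 under IWR-1, beside 10.4%, 7.57% and 16.2% of all genes tested. The 6 fibroblast markers, none at 0, summed to 9208 to 12038 CPM in DMSO, 4335 to 6423 in XAV939 and 3290 to 5680 in IWR-1, and 3 and 4 of them fell with the drugs. Their sums were 3291 to 5587 CPM in siCtrl and 1585 to 4505 in siTnks/2, where 1 rose (*Cd55*) and 0 fell. The 7 smooth muscle and pericyte markers summed to 709 to 1106 CPM in siCtrl and 191 to 434 in siTnks/2, where 4 fell. In the drug table they summed to 31.3 to 47.9 CPM in DMSO, 23.1 to 30.2 in XAV939 and 53.2 to 104 in IWR-1. Of 6 tested there, *Notch3* fell under XAV939, and *Notch3* and *Lmod1* fell and *Acta2* rose under IWR-1. Of 5 osteoblast markers tested 3 rose under each drug (*Bglap*, *Bglap2*, *Sp7*), as did 3 of 5 neuron and Schwann cell markers (*Tubb3*, *Syt1*, *Prph*), and 2 of 5 leukocyte markers (*Cd68*, *Csf1r*) fell under IWR-1. *Bglap2* and *Acp5* rose and *Stmn2* fell after knockdown. The summed levels of these lists were 80.5 to 207 CPM for osteoblast, 2.83 to 25.9 for neuron and Schwann cell, and 14.9 to 39.5 for leukocyte and osteoclast markers over the 15 libraries. The part of all these markers in the changes of the channel genes was not tested, and in bulk RNA fewer cells of a type and less RNA per cell cannot be told apart. DMSO replicate 3 stood apart in the drug table when each gene was measured from its mean over the 3 DMSO libraries, which include this one. On that baseline the median of long transcripts lay 0.40 above that of short ones on the log2 scale there, against -0.36 to 0.13 in the other 8 libraries (genes with over 6.78 kb against those with under 2.75 kb of exon). Results that rest on DMSO replicate 3 are also given without it.

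Scaled by exon length, *Piezo1* and *Trpv4* were the most abundant of the 9 transcripts in every group. In DMSO cells the mean levels were 33.2 ± 7.18 CPM per kb (SD, n = 3) for *Piezo1*, 17.5 ± 3.06 for *Trpv4* and 6.79 ± 1.70 for *Orai1*. *Cacna1g* (4.49 ± 0.508), *Cacna1h* (3.62 ± 0.771), *Cacna2d1* (3.44 ± 0.701) and *Stim1* (3.27 ± 0.367) followed, each overlapping its neighbour in this order. *Piezo2* (0.582 ± 0.126) and *Cacna1c* (0.464 ± 0.156) were lowest and overlapped. In siCtrl cells *Trpv4* (47.8 ± 3.49 CPM per kb) and *Piezo1* (46.1 ± 2.55) overlapped at the top, whereas *Cacna1c* (0.331 ± 0.0113) and *Cacna1h* (0.311 ± 0.0209) overlapped at the bottom. *Cacna1h* and *Cacna1g* therefore ranked among the mid-level transcripts in DMSO but near the bottom in siCtrl. The tables were normalized separately, so levels across them were not tested.

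**Figure D1:**
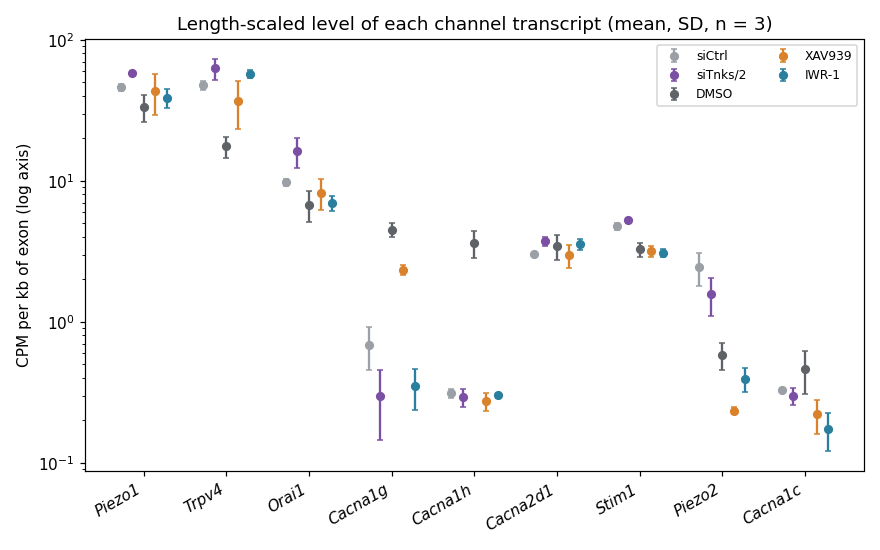
Mean level of each channel transcript in CPM per kb of exon on a log axis, with SD over 3 libraries, for the 5 groups, ordered by the DMSO mean. *Piezo1* and *Trpv4* lie highest in all groups, and *Cacna1h* drops from 3.62 in DMSO to 0.273 in XAV939 and 0.300 in IWR-1.

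Among the 9, *Cacna1h* showed the largest fall under XAV939, and *Cacna1g* and *Cacna1h* showed the largest falls under IWR-1, in an order that turned without DMSO replicate 3 (-3.57 and -3.63 on the log2 scale). *Cacna1h* (gene ID 58226, GRCm38 chr17:25374285-25436334) measured 43.8, 29.5 and 32.5 CPM in the DMSO libraries. Under XAV939 it measured 2.86, 2.93 and 2.22 CPM, and under IWR-1 2.82, 3.02 and 2.96 CPM. All 6 drug-treated libraries lay far below all 3 DMSO libraries. The fitted difference was -3.70 (SE 0.18) on the log2 scale under XAV939, a level 13-fold lower, and -3.56 (SE 0.18) under IWR-1, 11.8-fold lower. Among the 13873 genes tested it ranked 3 by size of the fall under XAV939, after *Krt19* (-4.71) and *Bmp3* (-4.07) and before *Cdh17* (-3.42), and 23 under IWR-1. Across the alternative fits its value ran from -3.81 to -3.51 under XAV939 and from -3.68 to -3.38 under IWR-1. Both drug comparisons share the DMSO libraries. The fitted difference between the drugs, IWR-1 minus XAV939, was 0.13 (SE 0.19), and their libraries overlapped. These drug values include the ones it was chosen by, so they carry no test.

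The knockdown, which played no part in that choice, left no difference in *Cacna1h* past the limit. Its siCtrl libraries measured 2.92, 2.92 and 3.28 CPM and its siTnks/2 libraries 2.46, 2.78 and 3.30 CPM, so the groups overlapped. The fitted change on the log2 scale, -0.09 (SE 0.16, adjusted p = 0.716, edgeR), had a 95% interval from -0.48 to 0.29. Both siRNA groups lay nearer to the drug-treated cells than to DMSO, in libraries normalized separately, so this was not tested. The gene overlaps *Tpsg1*, which had 0 counts in every library, and a long noncoding RNA. The strand setting of the counting is not given in the sources used here.

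*Cacna1g* (12291, chr11:94408391-94474400), the other T-type pore gene, separated the drugs. DMSO libraries measured 44.4, 41.1 and 51.2 CPM, XAV939 libraries 23.2, 25.6 and 21.9 CPM, and IWR-1 libraries 2.67, 3.15 and 4.84 CPM. The 3 groups did not overlap, under IWR-1 lowest. The change was -0.95 (SE 0.18, adjusted p = 0.00480) under XAV939, 1.93-fold lower, and -3.66 (SE 0.20, adjusted p = 1.52e-06) under IWR-1, 12.6-fold lower. At the same dose and time IWR-1 left 6.53-fold less *Cacna1g* than XAV939 (log2 difference -2.71, SE 0.20, adjusted p = 3.59e-05). In the siRNA table the gene measured 7.47, 4.43 and 9.06 CPM in siCtrl and 3.40, 1.32 and 4.41 CPM in siTnks/2, with every siTnks/2 library below every siCtrl library. That difference was -1.18 (SE 0.44) and missed the limit (adjusted p = 0.0990). It passed with the replicate number as a block (-1.23, adjusted p = 0.00560) and in DESeq2 (-1.20, adjusted p = 0.0294).

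*Cacna1c* (12288, chr6:118587240-119197384), the L-type pore gene, also fell with both drugs. It measured 9.48, 6.72 and 13.3 CPM in DMSO, 3.53, 4.47 and 6.05 CPM under XAV939, and 2.62, 3.53 and 4.81 CPM under IWR-1. All treated libraries lay below all DMSO libraries, by a narrow margin for XAV939 replicate 3. The change was -1.06 (SE 0.29, adjusted p = 0.0300) under XAV939 and -1.41 (SE 0.30, adjusted p = 0.00336) under IWR-1. DMSO replicate 3, the library with relatively more reads from long transcripts, was the highest, and without it the XAV939 value was -0.80 (adjusted p = 0.0873) and the IWR-1 value -1.14 (adjusted p = 0.0101). The XAV939 call was also lost without DMSO replicate 1 (adjusted p = 0.0749), XAV939 replicate 1 (0.104) or XAV939 replicate 2 (0.0937). With knockdown the difference was -0.14 (SE 0.13, adjusted p = 0.484), on 6.87, 7.28 and 6.86 CPM in siCtrl and 6.04, 5.67 and 7.34 CPM in siTnks/2, which overlapped. *Dcp1b*, which overlaps this gene, had 95 to 198 counts per library against 90 to 423 for *Cacna1c*.

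*Cacna2d1* (12293, chr5:15934264-16374511), the accessory subunit, behaved otherwise. It rose with knockdown, from 37.7, 36.4 and 37.9 CPM in siCtrl to 45.0, 43.4 and 49.9 CPM in siTnks/2, with no overlap (log2 fold change 0.31, SE 0.07, adjusted p = 0.0280). In the drug table the groups overlapped, at 42.7 ± 8.70 CPM in DMSO, 36.8 ± 7.01 under XAV939 and 44.1 ± 4.11 under IWR-1 (SD, n = 3). The change was -0.21 under XAV939 (95% interval -0.58 to 0.16) and 0.05 under IWR-1 (-0.32 to 0.42). Neither passed the limit (adjusted p = 0.412 and 0.855).

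**Figure D2:**
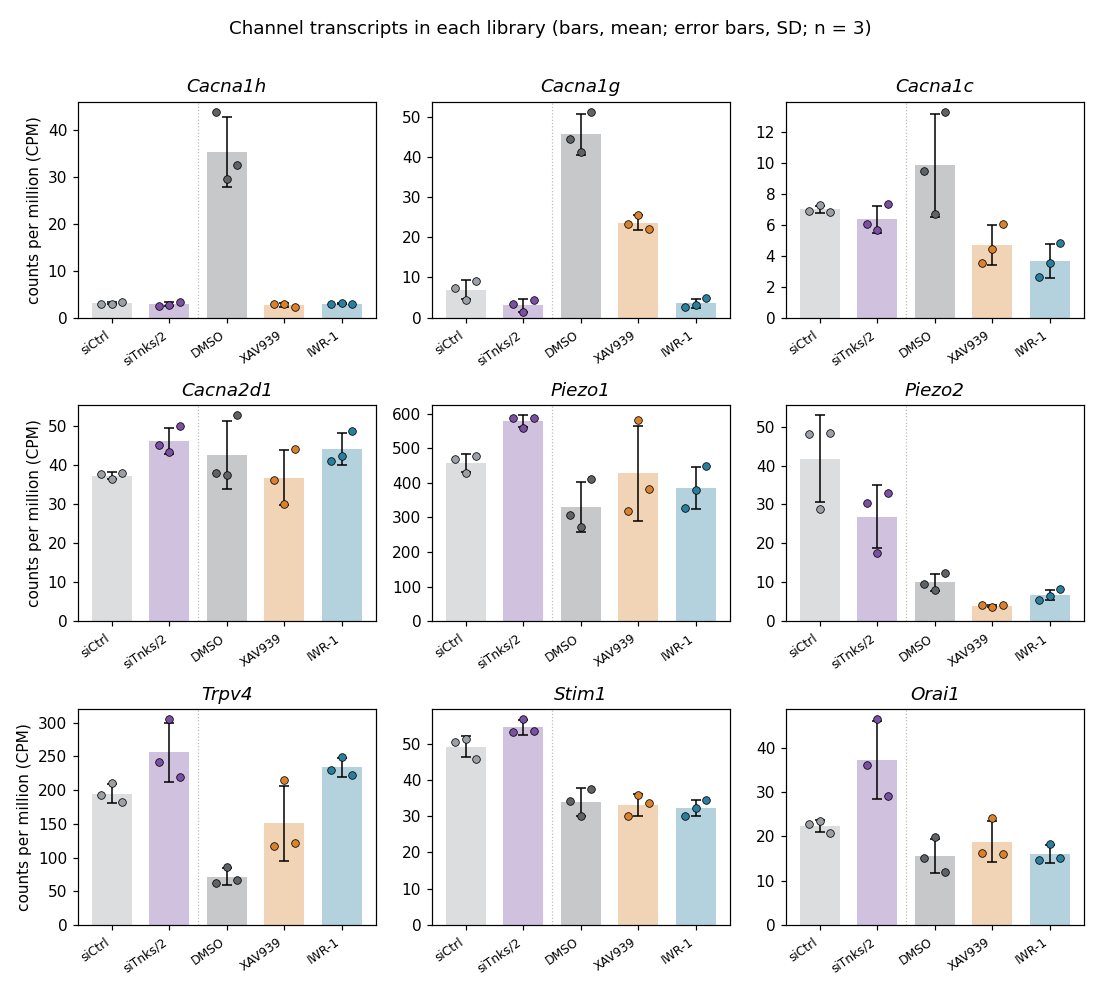
CPM of the 9 channel transcripts in each of the 15 libraries, with points for libraries, bars for means and error bars for SD (n = 3), siRNA groups left and drug groups right of the dotted line. *Cacna1h* lies at 29.5 CPM or more only in DMSO, *Cacna1g* falls in steps from DMSO to XAV939 to IWR-1, and *Trpv4* rises in the same order.

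*Piezo1* (234839, chr8:122481698-122551329) was higher after knockdown. It measured 468, 429 and 477 CPM in siCtrl and 589, 560 and 587 CPM in siTnks/2, a change of 0.34 (SE 0.07, adjusted p = 0.0209) that corresponds to a 1.26-fold level. With the drugs its libraries overlapped those of DMSO. DMSO measured 306, 273 and 410 CPM, XAV939 318, 582 and 382 CPM, and IWR-1 328, 380 and 449 CPM, under XAV939 replicate 2 highest. The changes were 0.37 under XAV939 (95% interval -0.13 to 0.87, adjusted p = 0.282) and 0.23 under IWR-1 (-0.27 to 0.73, adjusted p = 0.476). The overlapping gene *Ctu2* had 286 to 653 counts per library.

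*Piezo2* (667742, chr18:63010213-63387716) was lower in the drug-treated cells. It measured 9.64, 8.03 and 12.3 CPM in DMSO, 4.18, 3.75 and 4.14 CPM under XAV939, and 5.58, 6.45 and 8.20 CPM under IWR-1. XAV939 libraries lay below all DMSO libraries, whereas IWR-1 replicate 3 overlapped DMSO. The change under XAV939 was -1.30 (SE 0.19, adjusted p = 0.00142), 2.46-fold lower, and it was -1.13 (adjusted p = 0.00303) without DMSO replicate 3. Under IWR-1 it was -0.56 (SE 0.19, adjusted p = 0.0368). The IWR-1 call was lost without DMSO replicate 1 (adjusted p = 0.0743), DMSO replicate 3 (0.120), IWR-1 replicate 1 (0.138) or IWR-1 replicate 2 (0.114), and when only the 2 groups were fitted (0.0590). *Piezo2* was 1.67-fold higher under IWR-1 than under XAV939 (log2 difference 0.74, SE 0.20, adjusted p = 0.0239), a call lost without IWR-1 replicate 2 (0.0622) or 3 (0.0943) or XAV939 replicate 1 (0.0597), 2 (0.0664) or 3 (0.0578). In the siRNA table the values were 48.0, 28.9 and 48.3 CPM in siCtrl and 30.3, 17.6 and 32.8 CPM in siTnks/2. Replicate 2 was lowest in both groups, which overlapped. The difference of -0.63 (SE 0.28) missed the limit (adjusted p = 0.152) and passed with the replicate block (-0.64, adjusted p = 0.00241).

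*Trpv4* (63873, chr5:114622152-114658435) was the channel transcript that rose with both drugs. It measured 61.9, 85.5 and 66.9 CPM in DMSO, 117, 215 and 121 CPM under XAV939, and 230, 249 and 222 CPM under IWR-1. Every treated library exceeded every DMSO library. The rise was 1.08 (SE 0.22, adjusted p = 0.00737) under XAV939, 2.11-fold, and 1.71 (SE 0.22, adjusted p = 0.000173) under IWR-1, 3.27-fold. All IWR-1 libraries were above all XAV939 libraries, yet the difference of 0.63 (SE 0.22, 95% interval 0.15 to 1.11) missed the limit (adjusted p = 0.0717). It passed with the replicate block (0.68, adjusted p = 0.00210), in DESeq2 (0.63, adjusted p = 0.0299) and without XAV939 replicate 2 (0.98, adjusted p = 0.00259). In the siRNA table *Trpv4* measured 193, 210 and 182 CPM in siCtrl and 242, 306 and 220 CPM in siTnks/2, all above. That change of 0.39 (SE 0.13) missed the limit (adjusted p = 0.0730), passed with the block (0.38, adjusted p = 0.0108) and in DESeq2 (0.39, adjusted p = 0.0292), and without siTnks/2 replicate 3 (0.49, adjusted p = 0.0427). Of the chondrocyte markers 12 of 12 rose under IWR-1 and 6 of 12 under XAV939, beside 16.2% and 7.57% of all genes tested. Under XAV939 those not called included *Col2a1* (0.52, adjusted p = 0.118, edgeR) and *Sox9* (0.34, adjusted p = 0.0677, edgeR). *Acan*, which encodes the cartilage proteoglycan aggrecan, had the largest change of the 12 under each drug. It rose by 1.21 (adjusted p = 0.00516) under XAV939 and 2.95 (adjusted p = 1.12e-05) under IWR-1.

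*Orai1* and *Stim1*, the pore and the sensor of store-operated entry, were not called with either drug. *Orai1* (109305, chr5:123015074-123030452) measured 15.6 ± 3.91 CPM in DMSO, 18.8 ± 4.65 under XAV939 and 16.0 ± 1.99 under IWR-1. Its changes were 0.27 (95% interval -0.19 to 0.73, adjusted p = 0.404) and 0.03 (-0.43 to 0.50, adjusted p = 0.915). With knockdown *Orai1* rose 1.66-fold, from 22.7, 23.5 and 20.8 CPM to 36.2, 46.5 and 29.0 CPM without overlap (log2 fold change 0.73, SE 0.16, adjusted p = 0.0268). *Stim1* (20866, chr7:102261514-102437319) had values of 33.9 ± 3.81, 33.1 ± 2.96 and 32.1 ± 2.19 CPM in DMSO, XAV939 and IWR-1. Its log2 fold changes were -0.03 (95% interval -0.29 to 0.22) and -0.08 (-0.33 to 0.18), the narrowest intervals of the set in the drug table. With knockdown *Stim1* was 0.15 higher (SE 0.07, adjusted p = 0.162).

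RefSeq promoter windows of build GRCm38.p6 were held for 6 of the 9 genes, *Cacna1c* (3 entries), *Cacna2d1*, *Piezo1*, *Trpv4*, *Stim1* and *Orai1*. The stretches just upstream of *Trpv4*, which rose with both drugs, and of *Piezo1* and *Orai1*, which rose with knockdown, are shown 5′ to 3′ because these members rose and all or most of the window lies outside the transcribed span. The *Trpv4* stretch is chr5:114658436-114658671 (minus strand, 236 bases), that of *Piezo1* is chr8:122551330-122551579 (minus strand, 250 bases) and that of *Orai1* is chr5:123014824-123015073 (plus strand, 250 bases). Capitals mark exact matches, on either strand, to the core motifs of TCF/LEF (CTTTGAT), SOX (CTTTGTT), TEAD (GGAATG), SP/KLF (GGGCGG) and AP-1 (TGACTCA) factors.
Trpv4: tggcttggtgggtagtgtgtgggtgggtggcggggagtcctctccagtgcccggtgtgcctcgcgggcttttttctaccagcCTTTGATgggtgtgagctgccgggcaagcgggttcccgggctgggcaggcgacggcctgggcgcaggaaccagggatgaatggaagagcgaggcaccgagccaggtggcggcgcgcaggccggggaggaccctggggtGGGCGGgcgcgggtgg
Piezo1: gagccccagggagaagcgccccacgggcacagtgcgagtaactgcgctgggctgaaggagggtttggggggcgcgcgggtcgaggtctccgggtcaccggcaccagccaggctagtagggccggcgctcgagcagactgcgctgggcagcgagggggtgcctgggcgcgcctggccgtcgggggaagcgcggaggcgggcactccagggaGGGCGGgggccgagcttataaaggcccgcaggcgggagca
Orai1: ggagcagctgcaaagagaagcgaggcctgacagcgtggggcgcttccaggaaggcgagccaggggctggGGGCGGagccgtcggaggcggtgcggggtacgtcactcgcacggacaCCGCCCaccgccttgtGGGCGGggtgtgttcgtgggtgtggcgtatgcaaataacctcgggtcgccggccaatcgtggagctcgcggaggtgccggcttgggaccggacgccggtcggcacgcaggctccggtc
The *Trpv4* window held 1 CTTTGAT match, 168 bases before the start, a sequence found in 3.21% of the 32851 windows of 250 bases. GGGCGG, found in 32.7% of windows, occurred 2 times in the *Trpv4* window (the second lies partly in the 14 bases not printed, which fall within the gene), 1 time in that of *Piezo1* and 3 times in that of *Orai1*. The SOX, TEAD and AP-1 letters, held by 5.03%, 12.6% and 4.46% of windows, were not found in these 3. The GC content of the 3 windows was 72.0%, 74.0% and 70.8%, against a median of 52.4% (quartiles 45.2% and 61.2%) over all windows. A match is a string of letters and not a shown binding site.

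The 9 channel genes were chosen with earlier results of these data known, so counts of their calls are descriptions. Over the 9 genes, 3 passed an adjusted p of 0.05 with knockdown, all higher (*Cacna2d1*, *Piezo1*, *Orai1*). Among all 13672 genes tested there, 18% passed, 10.4% higher and 7.61% lower. With the replicate block 6 of 9 passed, 4 higher and 2 lower, beside 34.6% of all genes. Each of the 3 calls held with the replicate block and in DESeq2 but was lost in most fits that left out 1 library. That of *Cacna2d1* was lost on leaving out any library but siTnks/2 replicate 2 (adjusted p = 0.0516 to 0.0910). Those of *Piezo1* (0.0640 to 0.0769) and *Orai1* (0.0755 to 0.0969) were lost without any siCtrl library or without siTnks/2 replicate 1, when 608 to 930 genes passed in all instead of 2459.

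Of the 8 genes other than *Cacna1h*, 4 passed under XAV939, of which *Trpv4* was higher and *Cacna1g*, *Cacna1c* and *Piezo2* lower. Among all 13873 genes 17.4% passed, 7.57% higher and 9.85% lower. Under IWR-1 the same 4 genes passed in the same directions, beside a background of 36.4%, with 16.2% higher and 20.2% lower. Without DMSO replicate 3 the count was 3 of 8 with each drug. Their median log2 change was -0.12 under XAV939 and -0.02 under IWR-1, against 0.02 and 0.01 over all genes tested, and that of the 9 with knockdown was 0.15 against 0.00. Compared directly, IWR-1 and XAV939 differed for 2 of 8 genes, *Cacna1g* and *Piezo2*, with 17.6% of all genes passing.

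**Figure D3:**
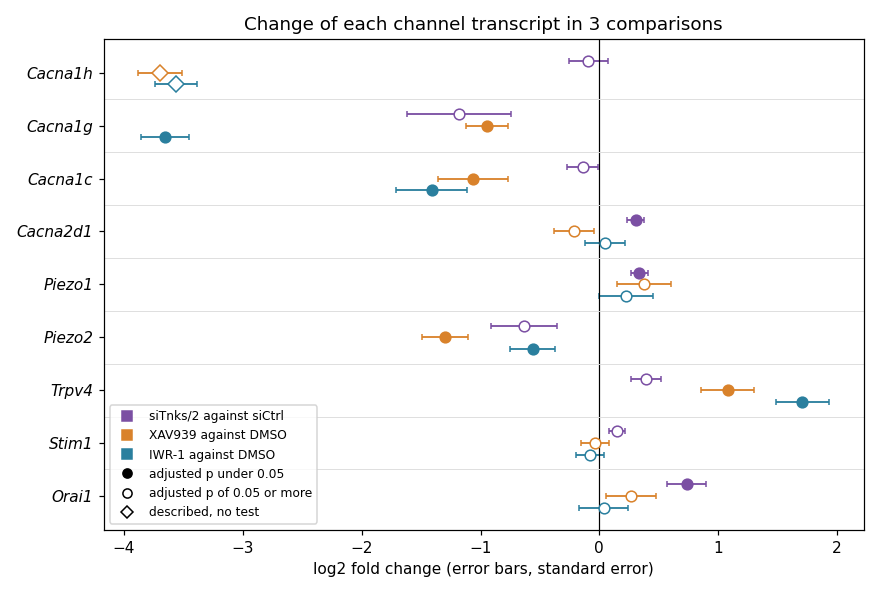
Log2 fold change of each channel transcript (horizontal axis, with standard error) after knockdown, XAV939 and IWR-1. Filled circles passed an adjusted p of 0.05, open circles did not, and the open diamonds of *Cacna1h* are described without a test. The values run from -3.70 for *Cacna1h* under XAV939 to 1.71 for *Trpv4* under IWR-1.

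Drug and knockdown effects were set against each other by an interaction term over the 15 libraries. The effect of IWR-1 differed from that of knockdown for 3 of 8 genes, with 24.4% of all 14271 genes passing. *Cacna1g* (-2.48, SE 0.46, adjusted p = 0.00141) and *Cacna1c* (-1.28, SE 0.37, adjusted p = 0.0188) fell further under IWR-1, and *Trpv4* rose further (1.31, SE 0.29, adjusted p = 0.00422). The *Cacna1c* difference was -1.11 and just past the limit, so no longer called, without IWR-1 replicate 1. With the block *Orai1* also differed (-0.67, adjusted p = 0.00570), as it did without DMSO replicate 3 (-0.86, adjusted p = 0.0385) or siTnks/2 replicate 3 (-0.86, adjusted p = 0.0433). The effect of XAV939 differed from that of knockdown for 0 of 8 genes in edgeR, where 13.5% of all genes passed, and for 0 in DESeq2. At an unadjusted p under 0.05 there were 3 of the 8, *Cacna1c* (-0.94), *Cacna2d1* (-0.53) and *Trpv4* (0.67), and 29.6% of all genes. With the replicate block, under which 28.2% of all genes passed against 13.5% without it, 5 of the 8 passed: *Cacna1c* (-0.93, adjusted p = 0.00999), *Cacna2d1* (-0.53, adjusted p = 0.00636), *Piezo2* (-0.65, adjusted p = 0.0102), *Trpv4* (0.65, adjusted p = 0.0153) and *Orai1* (-0.46, adjusted p = 0.0482). Without DMSO replicate 2 *Cacna1c* passed (-1.15, adjusted p = 0.0389), and without XAV939 replicate 3 *Cacna1c* (-1.16, just under the limit) and *Cacna2d1* (-0.68, adjusted p = 0.0349) did. For *Cacna1h* the difference from knockdown was -3.62 under XAV939 and -3.48 under IWR-1, given without a test.

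The genes whose pattern was most like that of *Cacna1h* were *Mfsd9* (Pearson r = 0.990), *Pgbd1* (0.986), *Gphn* (0.986), *Bmp3* (0.983) and *Fam117b* (0.980). The measure was the correlation over 15 libraries of log2 CPM centred on the control mean of each table, among 13342 genes tested in both, and the libraries share their tables and groups. *Mfsd9*, for example, averaged 24.8 ± 2.60 CPM in DMSO, 6.55 ± 0.476 under XAV939 and 7.44 ± 0.405 under IWR-1, but 4.54 ± 0.519 in siCtrl and 4.32 ± 0.287 in siTnks/2. *Bmp3*, which encodes a bone morphogenetic protein, averaged 2.90 ± 0.263 CPM in DMSO and 0.118 ± 0.0349 under XAV939. Among the 9 channel genes r with *Cacna1h* was 0.872 for *Cacna1c*, 0.649 for *Cacna1g*, 0.648 for *Piezo2* and -0.868 for *Trpv4*. For the others it was 0.408 (*Stim1*), 0.360 (*Cacna2d1*), 0.0717 (*Orai1*) and -0.329 (*Piezo1*). These correlations are descriptions.

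The other genes of calcium handling were taken from 9 lists holding 150 genes beside the 9, also chosen with earlier results known. Counts of these genes are descriptions. With knockdown 17 were higher, 9 lower and 67 not called of 93 tested, with a median log2 fold change of 0.00. Under XAV939 9 were higher, 14 lower and 76 not called of 99 tested, a median of -0.05. Under IWR-1 17 were higher, 31 lower and 51 not called of 99, a median of -0.12. These are 28%, 23.2% and 48.5% of the genes tested, read beside 18%, 17.4% and 36.4% of all genes. With the channel genes included, but *Cacna1h* left out for the drugs, the counts were 29 of 102, 27 of 107 and 52 of 107. The replicate block raised the first to 57 (33 higher, 24 lower) beside 34.6% of all genes, and the second to 43 (19 higher, 24 lower) beside 33.4% of all genes. Leaving out any siCtrl library or siTnks/2 replicate 1 lowered the first to between 6 and 14.

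**Figure D4:**
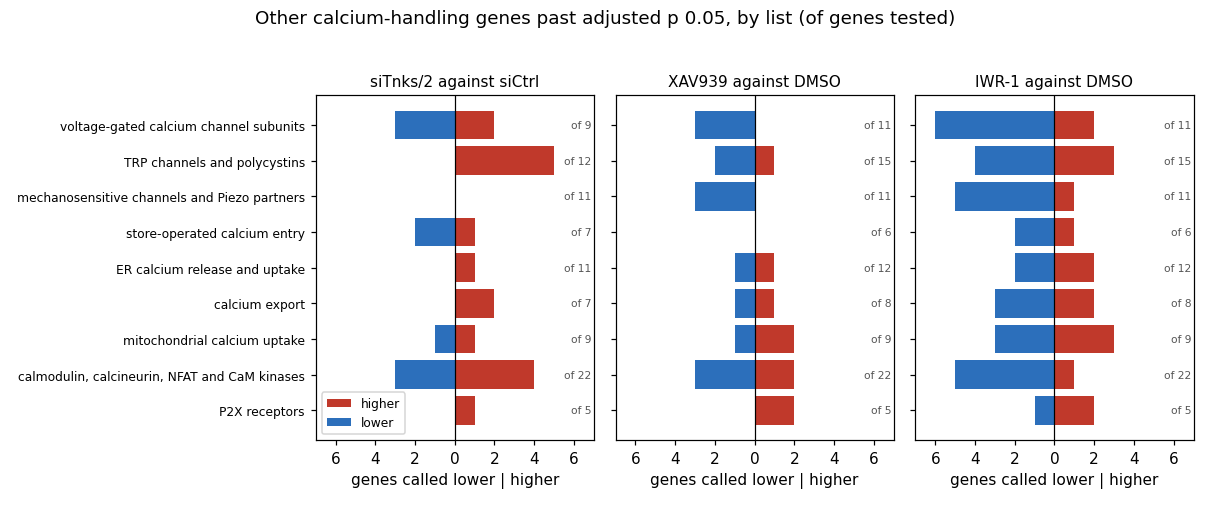
Number of calcium-handling genes other than the 9 that passed an adjusted p of 0.05, lower to the left and higher to the right, by list and comparison, with the number tested in grey. Under IWR-1 the voltage-gated subunits show 6 lower and 2 higher of 11, and with knockdown the TRP channels show 5 higher and 0 lower of 12.

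The counts of each list are read beside the shares of all genes called, 18% with knockdown, 17.4% under XAV939 and 36.4% under IWR-1. Voltage-gated subunits other than the 4 described were lower for 3 and higher for 0 of 11 tested under XAV939, and lower for 6 and higher for 2 of 11 under IWR-1. *Cacnb3*, an intracellular beta subunit, fell by 2.24 (SE 0.14, adjusted p = 2.90e-06) under IWR-1, from 31.3 ± 5.56 to 6.58 ± 0.490 CPM. *Cacnb2*, another beta subunit, fell by 1.09 (SE 0.18, adjusted p = 0.00200) under XAV939. *Cacna1a*, the P/Q-type pore gene, rose by 0.61 (adjusted p = 0.0115) under IWR-1. *Cacng4*, another listed subunit, rose by 2.20 (SE 0.65, adjusted p = 0.00524) under IWR-1, from 0.0827 ± 0.0917 to 0.596 ± 0.168 CPM. It also rose by 3.02 (SE 0.36, adjusted p = 0.00384) with knockdown, from 0.159 ± 0.0876 to 1.79 ± 0.269 CPM. With knockdown 2 were higher and 3 lower of 9. The pore gene *Cacna1d* rose by 1.54 (SE 0.23, adjusted p = 0.00858), from 1.02 ± 0.139 to 3.10 ± 0.706 CPM. Under the drugs *Cacna1d* had lower values, with a change of -0.81 (adjusted p = 0.0610) for XAV939 and -1.38 (adjusted p = 0.00260) for IWR-1.

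TRP channels other than *Trpv4* were higher for 5 and lower for 0 of 12 tested with knockdown (41.7% called). They were lower for 2 and higher for 1 of 15 under XAV939 (20%), and lower for 4 and higher for 3 of 15 under IWR-1 (46.7%). The knockdown calls of *Trpm5* and *Pkd2l2* were each lost in 4 of the fits that left out 1 library. Under IWR-1 *Trpm5* rose by 2.09 (SE 0.53, adjusted p = 0.00317), from 0.121 ± 0.0256 to 0.714 ± 0.167 CPM. *Trpm2*, a channel gated by ADP-ribose, fell from 2.41 ± 0.434 CPM in DMSO to 0.420 ± 0.0709 under XAV939 (-2.35, SE 0.30, adjusted p = 0.000440) and 0.244 ± 0.120 under IWR-1 (-3.03, SE 0.33, adjusted p = 2.87e-05). *Trpv2* fell by 1.44 (SE 0.22, adjusted p = 0.000339) under IWR-1 but rose by 2.51 (SE 0.48, adjusted p = 0.0165) after knockdown, a call lost without any of the siCtrl libraries. Among other mechanosensitive channels and PIEZO partners 0 of 11 passed with knockdown (0 in either direction), 3 were lower under XAV939, and 5 were lower and 1 higher under IWR-1. The mechanosensitive potassium channel *Kcnk2* fell by 1.18 (SE 0.16, adjusted p = 0.000231) under IWR-1, from 14.2 ± 1.02 to 6.23 ± 0.394 CPM, and *Kcnk10* changed by -1.44 (adjusted p = 0.00698) under XAV939 and by -1.84 (adjusted p = 0.000683) under IWR-1.

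Store-operated partners other than *Stim1* and *Orai1* were called 3 times with knockdown (1 higher, 2 lower of 7) and 3 times under IWR-1 (1 higher, 2 lower of 6), and 0 of 6 passed under XAV939. *Stimate*, a regulator of STIM1, rose by 0.59 (SE 0.09, adjusted p = 0.00864) with knockdown, and *Orai2* fell by 0.84 (SE 0.19, adjusted p = 0.00447) under IWR-1. In the endoplasmic reticulum list the pump gene *Atp2a3* rose by 1.67 (SE 0.29, adjusted p = 0.00237) under XAV939 and 2.40 (SE 0.28, adjusted p = 6.44e-05) under IWR-1, among 1 higher and 1 lower of 12 and 2 higher and 2 lower of 12, with 1 higher and 0 lower of 11 for knockdown. Export genes split. The exchanger *Slc8a3* rose in each comparison, by 0.93 (adjusted p = 0.00361) with knockdown, 0.77 (adjusted p = 0.00179) under XAV939 and 1.27 (adjusted p = 2.15e-05) under IWR-1. The plasma membrane pump gene *Atp2b4* changed by -0.93 (adjusted p = 0.00642) under XAV939 and by -2.27 (adjusted p = 1.28e-05) under IWR-1. Export counts were 2 higher and 0 lower of 7 with knockdown, 1 and 1 of 8 under XAV939, and 2 and 3 of 8 under IWR-1.

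Of 9 mitochondrial genes 1 was higher and 1 lower with knockdown, 2 and 1 under XAV939, and 3 and 3 under IWR-1. *Mcu*, the pore of the mitochondrial uniporter, rose by 0.87 (SE 0.09, adjusted p = 2.88e-05) under IWR-1 while *Mcub*, its inhibitory paralog, fell by 1.41 (SE 0.17, adjusted p = 8.43e-05). Of 22 genes of calmodulin, calcineurin, NFAT and the CaM kinases 4 were higher and 3 lower with knockdown, 2 and 3 under XAV939, and 1 and 5 under IWR-1. *Rcan1*, a calcineurin regulator, fell from 145 ± 9.68 CPM in DMSO to 75.3 ± 8.79 under XAV939 (-0.95, SE 0.13, adjusted p = 0.000963) and 51.7 ± 8.33 under IWR-1 (-1.49, SE 0.13, adjusted p = 1.72e-05). After knockdown *Rcan1* rose by 0.33 (SE 0.06, adjusted p = 0.0134), a call lost without siCtrl replicate 1 or 3 or siTnks/2 replicate 1. *Rcan2* changed by -0.91 (adjusted p = 0.00159) under XAV939 and -1.14 (adjusted p = 0.000111) under IWR-1. *Camk1* rose by 0.58 (adjusted p = 0.00697) under XAV939 and 1.01 (adjusted p = 7.95e-05) under IWR-1. *Nfatc4*, a transcription factor activated by calcineurin, fell by 1.67 (SE 0.33, adjusted p = 0.00233) under IWR-1. Of 5 P2X receptor genes, ATP-gated channels, 1 was higher after knockdown, 2 under XAV939 and 2 under IWR-1, where 1 was lower. *P2rx6* rose in all 3, by 1.33 (adjusted p = 0.00559), 1.28 (adjusted p = 0.00200) and 0.85 (adjusted p = 0.00749). The knockdown calls of *Trpv2*, *Rcan1*, *Trpm5* and *Pkd2l2* were lost in some alternative fits, and the drug values of *Cacna1d* were not computed under the alternatives. The other calls given for genes of these lists held in every alternative fit that gave a value. That they also held when any 1 library was left out follows from the rule by which they were named. *Trpm2*, *Kcnk10*, *Cacng4* and, under IWR-1, *Trpm5* had no value under the stricter filter, which asks for 10 or more counts throughout. Of the genes eligible to be named, 6 of 23 kept their call on leaving out any 1 library for knockdown, 13 of 21 for XAV939 and 28 of 36 for IWR-1.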

How the data were processed

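Poly(A) RNA of 15 samples of mouse articular chondrocytes was sequenced on stranded libraries, and the study's methods call the replicates biological. Whether they came from separate animals or cultures is not given in the sources used here, so p-values measure only the spread between these samples. The deposited values are raw read counts per Entrez gene. Per the submitters' processing notes, the authors used Trimmomatic 0.32 for trimming, TopHat2 2.0.13 for alignment on mm10, and HTSeq 0.6.1p1 for counting. The strand setting and annotation of the counting are not given in the sources used here. Reads carry no molecular identifiers. Of 24134 gene IDs 24051 matched a symbol, and positions and exon lengths come from the GRCm38 annotation.

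Tests ran under R 4.3.3 in edgeR 4.0.16: filterByExpr, TMM scaling, 1 quasi-likelihood fit per table (1 fit over 15 libraries for differences between drug and knockdown effects), prior count 2, and Benjamini-Hochberg adjustment over all genes tested, called under 0.05. The study used DESeq2. CPM are counts over the TMM-scaled library size. Alternatives were RLE and upper-quartile scaling, no filter or at least 10 counts in every library, DESeq2 1.42.0, the replicate block, fits of only 2 groups, and leaving out each library. The steps were tested on simulated data.

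Libraries with the same replicate number deviated together from their group means (r = 0.143 to 0.553 in 9 pairs of the drug table and 0.424 to 0.519 in 3 pairs of the siRNA table, all above 0.1). Pairs with different numbers ran from -0.489 to 0.318 in the drug table, which overlaps the pairs of the same number. In the siRNA table they ran from -0.409 to 0.0972, without overlap. The numbers come from the sample titles, and blocked values stand beside the calls they change.

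Counts of calls under the drugs leave out *Cacna1h*. The 9 genes and the gene lists were chosen with earlier results of these data known. All 9 are named. Of each calcium list and comparison, up to 3 genes higher and 3 lower with the largest change were eligible, if they passed the limit with all treated libraries on 1 side of the controls. Values are given for some of the genes among these whose call held when any 1 library was left out. Of those, *Cacng4*, *Trpm5* and *Camk1* were added after the values were seen, as were other comparisons of *Trpv2*, *Rcan1* and *Cacna1d* and the mention of *Pkd2l2*. Also named are the 5 genes most correlated with *Cacna1h*, and *Tnks* and *Tnks2*. Genes listed among the largest falls under XAV939, and *Acan*, were named after their values were seen. Skeletal muscle and endothelial markers were also read, and their summed levels reached at most 9.53 and 8.45 CPM in any library. Under IWR-1 *Tek*, the 1 endothelial marker tested, fell by 2.30 (adjusted p = 0.000374, edgeR). Of 4 skeletal muscle markers tested there, *Tnnt3* rose by 0.62 (adjusted p = 0.0496, edgeR).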

Additional observations from a re-analysis of the deposited data

Results flagged for a closer look

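The effect of IWR-1 differed from that of tankyrase knockdown for 3 of 8 channel genes by a test of the difference itself, an interaction term in edgeR over 15 libraries, against 24.4% of all 14271 genes. The difference, IWR-1 effect minus knockdown effect on the log2 scale, was -2.48 for *Cacna1g* (adjusted p = 0.00141), -1.28 for *Cacna1c* (adjusted p = 0.0188) and 1.31 for *Trpv4* (adjusted p = 0.00422). The log2 fold changes under IWR-1 and after knockdown were -3.66 and -1.18 for *Cacna1g*, -1.41 and -0.14 for *Cacna1c*, and 1.71 and 0.39 for *Trpv4*, and none of the 3 knockdown values was called in the main fit. With the replicate block those of *Cacna1g* (adjusted p = 0.00560) and *Trpv4* (adjusted p = 0.0108) were called, as they were in DESeq2 (adjusted p = 0.0294 and 0.0292). The *Cacna1c* call was lost without IWR-1 replicate 1 (-1.11). The controls of the tables differ in treatment (DMSO for 108 h, or control siRNA), which cannot be told apart from the treatments in these differences.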

How the results depend on the processing

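The 9 channel genes gave 771 values under the alternatives, of which 712 kept direction and side of the limit, 28 lost a call, 20 gained one and 11 changed direction without being called. With the replicate block, which pairs libraries of the same number, channel genes called after knockdown went from 3 to 6, and calcium-handling genes called (the 9 included) went from 29 to 57 after knockdown and, without *Cacna1h*, from 27 to 43 under XAV939. The block also raised the channel genes whose XAV939 effect differed from knockdown from 0 to 5. Over all genes it raised calls from 2459 to 4727, from 2416 to 4630 and from 1922 to 4018 in these 3 comparisons. DESeq2 called 5 channel genes after knockdown. Leaving out 1 library gave 0 to 3 channel genes after knockdown, 6 to 32 calcium-handling genes after knockdown, 1 to 2 channel genes between the drugs (main value 2) and 0 to 2 between XAV939 and knockdown. Changes of direction were confined to values that were not called: *Stim1* under XAV939 was 0.0171 with upper-quartile scaling and -0.1152 to 0.0355 without 1 library, *Cacna2d1* under IWR-1 -0.0479 to 0.2213, *Orai1* under IWR-1 -0.1278 to 0.2391, and, IWR-1 against XAV939, *Piezo1* -0.3225 to 0.14 and *Stim1* -0.1114 to 0.0171. The cause of these shifts was not tested. The calls of *Cacna2d1*, *Piezo1* and *Orai1* after knockdown were lost in 5, 4 and 4 of the fits that left out 1 library. Their values over all alternatives ran from 0.25 to 0.35, 0.29 to 0.37 and 0.54 to 0.89. All 3 calls held with the replicate block and in DESeq2.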
